A study of Mus musculus and Rattus norvegicus with 30 samples.

Results

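The axon guidance ligands and receptors are the gene families whose proteins steer growing axons, and their levels and injury responses were described here in the dorsal root ganglion (DRG), the cluster of sensory neurons beside the spinal cord. Members were taken by gene symbol: semaphorins, plexins, neuropilins, Eph receptors, ephrins, Slits, Robos, netrins, and the netrin receptors of the Unc5 and Dcc families. Of 54315 features in the mouse count table, 72 symbols matched and 69 were ligands or receptors; the antisense RNA Plxna4os1 and the unrelated genes Unc50 and Unc5cl were set aside. Of 39281 features in the rat count table, 69 symbols matched and 67 were members. In mice, RNA came from L3 and L4 DRG of adult males and females of the BALB/c and B10.D2 strains, 1 animal per sample, 28 days after spared nerve injury (SNI), which spares the tibial branch of the sciatic nerve while its common peroneal and sural branches are cut, or after sham surgery. BALB/c gave 6 sham and 4 SNI libraries and B10.D2 gave 5 of each, and B10.D2 sham 59 and BALB/c SNI 66 of the labels were not analysed here. In rats, RNA came from L5 DRG of male Wistar animals, with 3 animals pooled in each of 4 sham and 4 injured samples, 21 days after ligation and transection of the L5 spinal nerve (SNT). The comparisons ask how injury changes the ganglion in each model and whether the mouse strains, described by the study as differing in mechanical hypersensitivity after nerve injury, differ in it. The mouse DRG also holds the somata of uninjured tibial afferents, whereas the whole spinal nerve of the rat DRG was cut.

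Axon guidance works by contact between a ligand and the growth cone of an axon. Semaphorins act mostly through plexins, and most of the secreted class 3 semaphorins also need a neuropilin. Ephrins sit on the cell surface, ephrin-A ligands by a lipid anchor and ephrin-B ligands by a membrane span, and bind Eph receptor tyrosine kinases, which can signal in both cells. Slits are secreted repellents read by Robo receptors. Netrins attract axons through Dcc and repel them through Unc5 receptors. Adult sensory neurons and the glia, endothelial cells and fibroblasts around them keep expressing many of these genes, and a number of them regulate axon regrowth and synapses after injury.

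Mouse libraries held 30 to 41.9 M counts (M, mega), and rat libraries 11.95 to 17.9 M. Levels are given as counts per M after TMM scaling (CPM), and levels between mouse genes as transcripts per M (TPM), which divides by exon length. A count of 3, taken as the floor, was 0.0716 to 0.100 CPM in mouse and 0.168 to 0.251 CPM in rat. Differences are log2 fold changes ± SE from edgeR's quasi-likelihood test, called where the Benjamini-Hochberg adjusted p over all features was under 0.05. Of the 10 injured-neuron markers, 10 rose in BALB/c SNI, 9 in B10.D2 SNI and all 7 of those tested in rat SNT. In rat, sham 4 and SNT 1 lay between the groups on the first principal component (68.5% of the variance), and the summed injured-neuron markers were 941 CPM in sham 4 against 349 to 389 CPM in the other sham libraries. Of the rat members, 22 were listed at 0 counts in every library, and so were genes basic to DRG neurons and glia such as Tubb3, Uchl1, Glul and Mbp. A rat gene at 0 is therefore only listed at 0 and is not described as absent.

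In the uninjured mouse ganglion, 64 of the 69 members reached a mean of 1 TPM in BALB/c sham (n = 6) and 38 reached 10 TPM. The highest level was that of Plxnc1, the receptor of the membrane-anchored semaphorin Sema7a, at 161 ± 21.4 TPM (SD). Next came Sema3b, a secreted semaphorin, at 135 ± 26.4 TPM, and Slit1, a secreted Robo ligand, at 107 ± 22.8 TPM. Library values of these 3 overlapped between neighbours, and a gap followed: the lowest library of Slit1 lay above the highest of the next gene, Sema7a, at 58 ± 4.06 TPM. Robo2, a receptor of Slits, was at 57.2 ± 6.75 TPM and Nrp1, a co-receptor for class 3 semaphorins, at 49.5 ± 5.58 TPM. Of 68 neighbouring pairs in the order of levels, 65 overlapped between libraries. The same 3 genes led in B10.D2 sham, with Plxnc1 at 174 ± 7.02 TPM, Sema3b at 99.1 ± 7.97 TPM and Slit1 at 85.3 ± 16.7 TPM (n = 5).

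By family, members summed to 518 ± 33.6 TPM for the 20 semaphorins and 446 ± 51.5 TPM for the 9 plexins in BALB/c sham. The 3 Slits summed to 122 ± 22.7 TPM, most of it Slit1, and the 2 neuropilins to 82 ± 7.23 TPM. The 4 Robos summed to 72.9 ± 6.13 TPM. The 9 EphA receptors, 5 EphB receptors and 5 ephrin-A ligands were close to each other at 67 ± 3.95 TPM, 66.3 ± 5.71 TPM and 66.2 ± 3.08 TPM. The leading members of these were Epha6 at 35.6 ± 2.17 TPM, Ephb6, which lacks kinase activity, at 38.3 ± 4.04 TPM, and Efna1 at 45.6 ± 2.37 TPM. The 4 netrins summed to 57.1 ± 6.93 TPM, led by Ntn1 at 20.6 ± 4.74 TPM, and the 3 ephrin-B ligands to 53 ± 4.92 TPM, led by Efnb1 at 27 ± 3.81 TPM. The lowest sum was that of the 5 Unc5 and Dcc receptors, 25.4 ± 1.89 TPM, with Unc5c at 12.1 ± 0.589 TPM and Dcc at 0.386 ± 0.0839 TPM. At the bottom of the order, Robo3 was at 0.245 ± 0.0800 TPM and Epha1, chosen after its value was seen, at 0.148 ± 0.0296 TPM; Epha1 did not pass the filter on low counts.

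**Figure D1:**
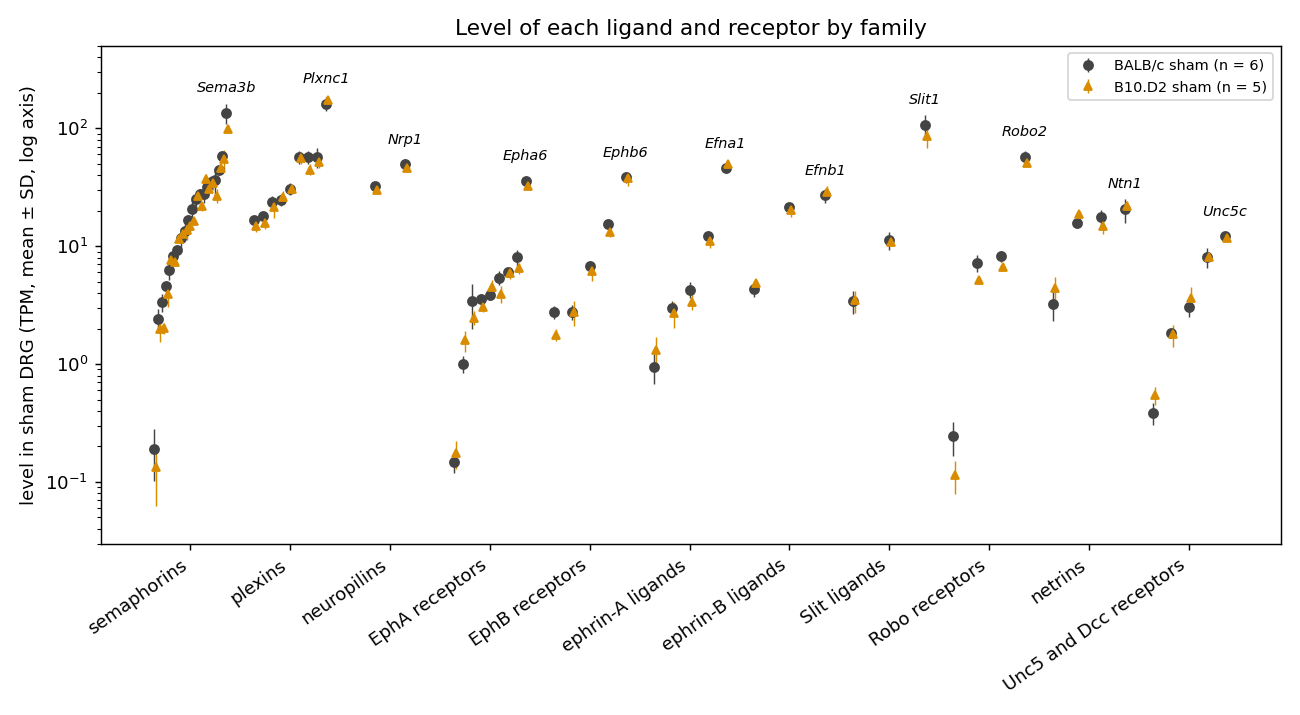
Level of each ligand and receptor by family in sham DRG, in TPM on a log axis; circles are BALB/c (n = 6), triangles B10.D2 (n = 5), and bars the SD around the mean. The leading member of each family is named, and in BALB/c Plxnc1 (161 TPM), Sema3b (135 TPM) and Slit1 (107 TPM) stand at the top.

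After SNI in BALB/c mice, 17 of 68 tested members were called, 7 higher and 10 lower (25%, beside 9.69% of all 24685 features tested; 4.82% higher and 4.87% lower). After SNI in B10.D2 mice, 8 of 68 were called, 5 higher and 3 lower (11.8%, beside 4.58% of all features; 2.1% higher and 2.48% lower). Leaving out 1 library at a time gave 9 to 15 called members in BALB/c (9 without SNI 64, 10 without sham 56 or SNI 65) and 5 to 8 in B10.D2 (5 without SNI 69 or SNI 90), and 9 of the 17 and 5 of the 8 calls were kept in every such fit. In both strains the median log2 fold change over the members was near that over all features: 0.01 against 0.00 for BALB/c and 0.03 against 0.01 for B10.D2. Values of SNI and sham libraries did not overlap for 12 members in BALB/c (8.61% of all features) and for 6 in B10.D2 (5.18%). In whole ganglia, fewer cells of a type and less RNA per cell cannot be told apart, and p-values measure the spread between animals in mouse and between pools of 3 animals in rat. Of the 17 members called in BALB/c, all 17 had the same sign in B10.D2, beside 96.9% of all features called in BALB/c, and 7 were called in both strains, all in the same direction; 3.51% of all features were called the same way in both.

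The semaphorin Sema6a, a membrane-spanning ligand of plexins A2 and A4, rose most among the called members in both strains. It was at 16.9 to 21.2 CPM (median 19.2) in BALB/c sham and at 48.8, 51.9, 38.4 and 39 CPM in the 4 SNI libraries. In B10.D2 it was at 17.1, 18.8, 17.7, 18.3 and 15.1 CPM in sham and at 38, 24, 37, 35.3 and 37.9 CPM after SNI. No SNI library overlapped with sham in either strain, although B10.D2 SNI 76 stood lower than the other SNI libraries. The log2 fold change by edgeR was 1.21 ± 0.11, adjusted p = 3.66e-07 in BALB/c and 0.99 ± 0.11, adjusted p = 1.89e-05 in B10.D2, a 2.31-fold and 1.98-fold rise. The difference between strains was -0.22 ± 0.16 (confidence interval -0.53 to 0.09), not called, and both injury calls were kept when any 1 library was left out.

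**Figure D2:**
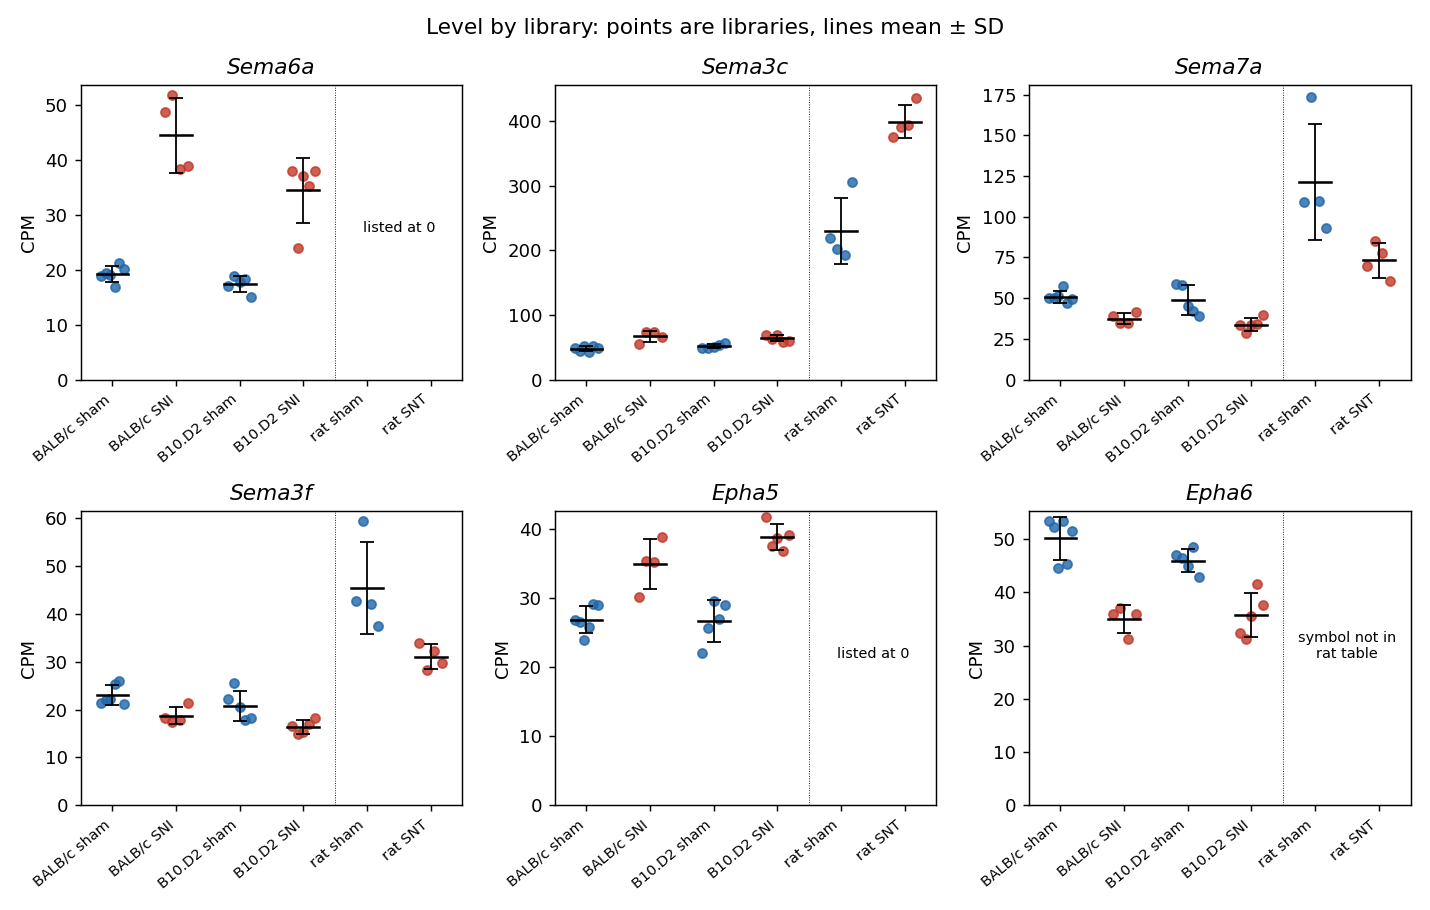
CPM of 6 members in each library, by strain and surgery; points are libraries and lines the mean ± SD, with rat at the right of each panel on the same axis. Sema6a lies between 38.4 and 51.9 CPM in BALB/c SNI against 16.9 to 21.2 CPM in BALB/c sham.

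Sema3c, a secreted class 3 semaphorin, rose in both strains by less. It was at 42 to 52.1 CPM (median 49.2) in BALB/c sham and at 54.6, 73.4, 73.1 and 66.1 CPM after SNI. In B10.D2 it was at 49.1, 49, 49.8, 53.2 and 56.1 CPM in sham and at 69.3, 63.1, 68.8, 58.4 and 60.3 CPM after SNI. All SNI libraries lay above all sham libraries of their strain. The log2 fold change by edgeR was 0.47 ± 0.07, adjusted p = 1.50e-04 in BALB/c and 0.29 ± 0.07, adjusted p = 0.021 in B10.D2; the B10.D2 call was lost in 6 of 10 fits that left out 1 library (adjusted p up to 0.072).

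Sema7a, the GPI-anchored ligand of Plxnc1, fell in both strains. It was at 46.8 to 57.7 CPM (median 50.1) in BALB/c sham and at 38.8, 34.8, 34.6 and 41.6 CPM after SNI, with no overlap. In B10.D2 it was at 58.8, 58.2, 44.9, 42.2 and 39.3 CPM in sham and at 33.8, 28.3, 33.3, 34 and 39.6 CPM after SNI, and the highest SNI library reached just above the lowest sham library. The log2 fold change by edgeR was -0.45 ± 0.10, adjusted p = 0.0047 in BALB/c and -0.50 ± 0.10, adjusted p = 0.0035 in B10.D2, and both calls were kept without any 1 library. Sema3f, a class 3 semaphorin that acts through Nrp2, fell by less in each strain. It was at 21.1 to 26.1 CPM (median 22.1) in BALB/c sham and at 18.3, 17.4, 17.9 and 21.4 CPM after SNI, and at 22.2, 25.5, 20.5, 17.7 and 18.2 CPM in B10.D2 sham and 16.5, 14.9, 15.3, 16.9 and 18.3 CPM after SNI. The groups overlapped in both strains. By edgeR the log2 fold change was -0.30 ± 0.09, adjusted p = 0.045 and -0.33 ± 0.09, adjusted p = 0.045, and the call was lost in 6 of 10 fits without 1 library in BALB/c and 8 of 10 in B10.D2. In all, 4 of 20 semaphorins were called in each strain, 2 higher and 2 lower, beside 9.69% (BALB/c) and 4.58% (B10.D2) of all features. Their median log2 fold change was -0.01 (BALB/c) and 0.08 (B10.D2).

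Of the 11 plexins and neuropilins, which read the semaphorins, 2 were called in each strain, beside background shares of 9.69% (BALB/c) and 4.58% (B10.D2). Of 9 plexins, 2 were called higher in BALB/c and 1 in B10.D2, none lower. Plxna3, a receptor for class 3 semaphorins together with neuropilins, was at 32 to 39.1 CPM (median 34.7) in BALB/c sham and at 35.8, 42.8, 41.8 and 47.1 CPM after SNI. In B10.D2 it was at 28.5, 29.6, 37.7, 30.0 and 31.4 CPM in sham and 43, 41.9, 42.5, 35.5 and 39.9 CPM after SNI. Its log2 fold change by edgeR was 0.26 ± 0.08, adjusted p = 0.04 in BALB/c, lost in 6 of 10 fits without 1 library, and 0.35 ± 0.08, adjusted p = 0.011 in B10.D2, kept in all of them. Plxnc1, the member with the highest level per length, was at 358 ± 40.6 CPM (n = 6, SD) in BALB/c sham and 337 ± 5.54 CPM (n = 4, SD) after SNI, with a log2 fold change of -0.09 ± 0.06, adjusted p = 0.43 by edgeR. Its ligand Sema7a was called lower, and the receptor was not. Nrp2, a co-receptor for class 3 semaphorins, was called in B10.D2 alone among the strains (0.21 ± 0.05, adjusted p = 0.026, edgeR), at 98, 98.9, 103, 88.2 and 88.4 CPM in sham and 120.4, 118, 112, 96 and 111 CPM after SNI, with overlap between the groups and a call lost in 5 of 10 fits without 1 library. Nrp1 was at 129 ± 9.04 CPM (n = 6, SD) in BALB/c sham and 131 ± 11.7 CPM (n = 4, SD) after SNI.

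Among the Eph receptors the called EphA members moved in opposite directions. Of the 8 EphA receptors tested in BALB/c, 1 was called higher and 3 lower, with a median of -0.30. In B10.D2, 1 was called higher and 1 lower. Beside these, 9.69% (BALB/c) and 4.58% (B10.D2) of all features were called. Epha5, a receptor of ephrin-A ligands, rose: it was at 23.9 to 29.2 CPM (median 26.7) in BALB/c sham and at 30.2, 35.5, 35.3 and 38.94 CPM after SNI. In B10.D2 it was at 22.1, 25.7, 29.6, 27.1 and 29 CPM in sham and 41.7, 37.6, 38.8, 36.8 and 39.2 CPM after SNI. All SNI libraries lay above all sham libraries in both strains. The change was 0.38 ± 0.08, adjusted p = 0.0027 and 0.53 ± 0.08, adjusted p = 2.10e-04 by edgeR, and both calls were kept without any 1 library. Epha6, the leading EphA receptor by level, fell. It was at 44.6 to 53.5 CPM (median 51.9) in BALB/c sham and 35.9, 37, 31.2 and 36 CPM after SNI, and at 47, 46.5, 44.9, 48.5 and 42.8 CPM in B10.D2 sham and 32.4, 31.2, 35.6, 41.6 and 37.5 CPM after SNI. SNI and sham did not overlap in either strain, and the change was -0.52 ± 0.07, adjusted p = 3.14e-05 in BALB/c and -0.35 ± 0.07, adjusted p = 0.0028 in B10.D2 by edgeR.

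Epha7 and Epha10, the latter without kinase activity, were called lower in BALB/c alone. Epha7 was at 10.2 ± 0.788 CPM (n = 6, SD) in sham and 7.31 ± 0.592 CPM (n = 4, SD) after SNI (-0.47 ± 0.10, adjusted p = 0.0025, edgeR), and Epha10 was at 6.81 ± 0.726 CPM (n = 6, SD) in sham and 4.75 ± 0.450 CPM (n = 4, SD) after SNI (-0.53 ± 0.10, adjusted p = 0.0022, edgeR). In B10.D2 they had log2 fold changes of -0.28 and -0.23, with a difference between strains of 0.19 ± 0.13 and 0.30 ± 0.15, not called. Of the 5 EphB receptors, Ephb2, which binds ephrin-B ligands, was called higher in BALB/c (0.52 ± 0.16, adjusted p = 0.049, edgeR), at 7.60 to 10.6 CPM (median 9.33) in sham and 10.6, 14.7, 13.8 and 14.2 CPM after SNI; the groups overlapped and the call was lost in 8 of 10 fits without 1 library. No EphB receptor was called in B10.D2. Ephb6, the leading EphB by level, had a log2 fold change of 0.04 ± 0.10 in BALB/c.

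Between the mouse strains, ephrins were called in BALB/c alone. There 1 of 5 ephrin-A ligands was called higher and 1 lower, beside 9.69% of all features. Efna4, a GPI-anchored ligand of EphA receptors, was higher (0.76 ± 0.24, adjusted p = 0.044, edgeR), at 0.269 to 0.601 CPM (median 0.364) in sham and 0.486, 0.602, 0.648 and 1.021 CPM after SNI, a low level, and the call was lost in 8 of 10 fits without 1 library. Efna3 was lower (-0.60 ± 0.16, adjusted p = 0.021, edgeR), at 2.34 to 3.51 CPM (median 2.60) in sham and 2.17, 1.81, 1.43 and 1.957 CPM after SNI, and its call was lost without SNI 65 (adjusted p = 0.097) and without SNI 64 (0.059). In B10.D2 (n = 5 each, SD), Efna3 was at 2.21 ± 0.347 CPM in sham and 1.64 ± 0.304 CPM after SNI (log2 fold change -0.43), not called. Efna4 was at 0.560 ± 0.163 and 0.588 ± 0.0512 CPM there. The difference between strains was called for neither. Efna1, the main ephrin-A by level, had a log2 fold change of 0.02 ± 0.06 in BALB/c, and no ephrin-B ligand was called in either strain.

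Of the 3 Slits and 4 Robos, 2 were called in BALB/c, beside 9.69% of all features, and the leading members were not among them. Slit1 was at 169 ± 32.3 CPM (n = 6, SD) in BALB/c sham and 165 ± 21.4 CPM (n = 4, SD) after SNI, and Robo2 at 258 ± 31.6 CPM (n = 6, SD) and 230.8 ± 17.9 CPM (n = 4, SD); neither was called. Slit2 (-0.34 ± 0.10, adjusted p = 0.041) and Robo1 (-0.35 ± 0.07, adjusted p = 0.0018) were called lower in BALB/c by edgeR, both named here after their values were seen, and the Slit2 call was lost in 7 of 10 fits without 1 library. None of the 7 Slits and Robos was called in B10.D2. Slit2 overlapped between groups in BALB/c, at 59.3 to 97.8 CPM in sham and 55.9 to 62.9 CPM after SNI. In B10.D2 it did not, at 69.2 to 78.9 CPM in sham and 53.1 to 67.1 CPM after SNI (log2 fold change -0.22). The log2 fold change of Robo1 in B10.D2 was -0.09.

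The Unc5 and Dcc receptors of netrins all had negative log2 fold changes in BALB/c, -0.50 to -0.22. Of the 5, 2 were called, beside 9.69% of all features. Unc5c was at 58.2 to 66.4 CPM (median 60.8) in sham and 52.7, 53.1, 50.7 and 46.1 CPM after SNI (-0.28 ± 0.06, adjusted p = 0.0035, edgeR), without overlap between the groups. Unc5b was at 10.4 to 17.4 CPM (median 13.3) in sham and 7.10, 9.23, 8.32 and 12.9 CPM after SNI (-0.50 ± 0.15, adjusted p = 0.04, edgeR), lost in 6 of 10 fits without 1 library. The summed level of the 5 was 80.5 to 88.6 CPM in BALB/c sham and 66.9 to 70.2 CPM after SNI, and 75.9 to 94.3 CPM and 66.5 to 77.7 CPM in B10.D2, where none was called. In B10.D2 the log2 fold changes were -0.44 to 0.14, with 1 of 5 positive. That of Unc5c was -0.19 (adjusted p = 0.069, edgeR). By edgeR, 3 of the 5 were at an unadjusted p under 0.05 there, beside 16.8% of all features, and 2 in BALB/c, beside 23.2%. No netrin was called in either strain, and the log2 fold change of Ntn1 was 0.15 ± 0.16 (BALB/c) and 0.11 ± 0.16 (B10.D2).

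**Figure D3:**
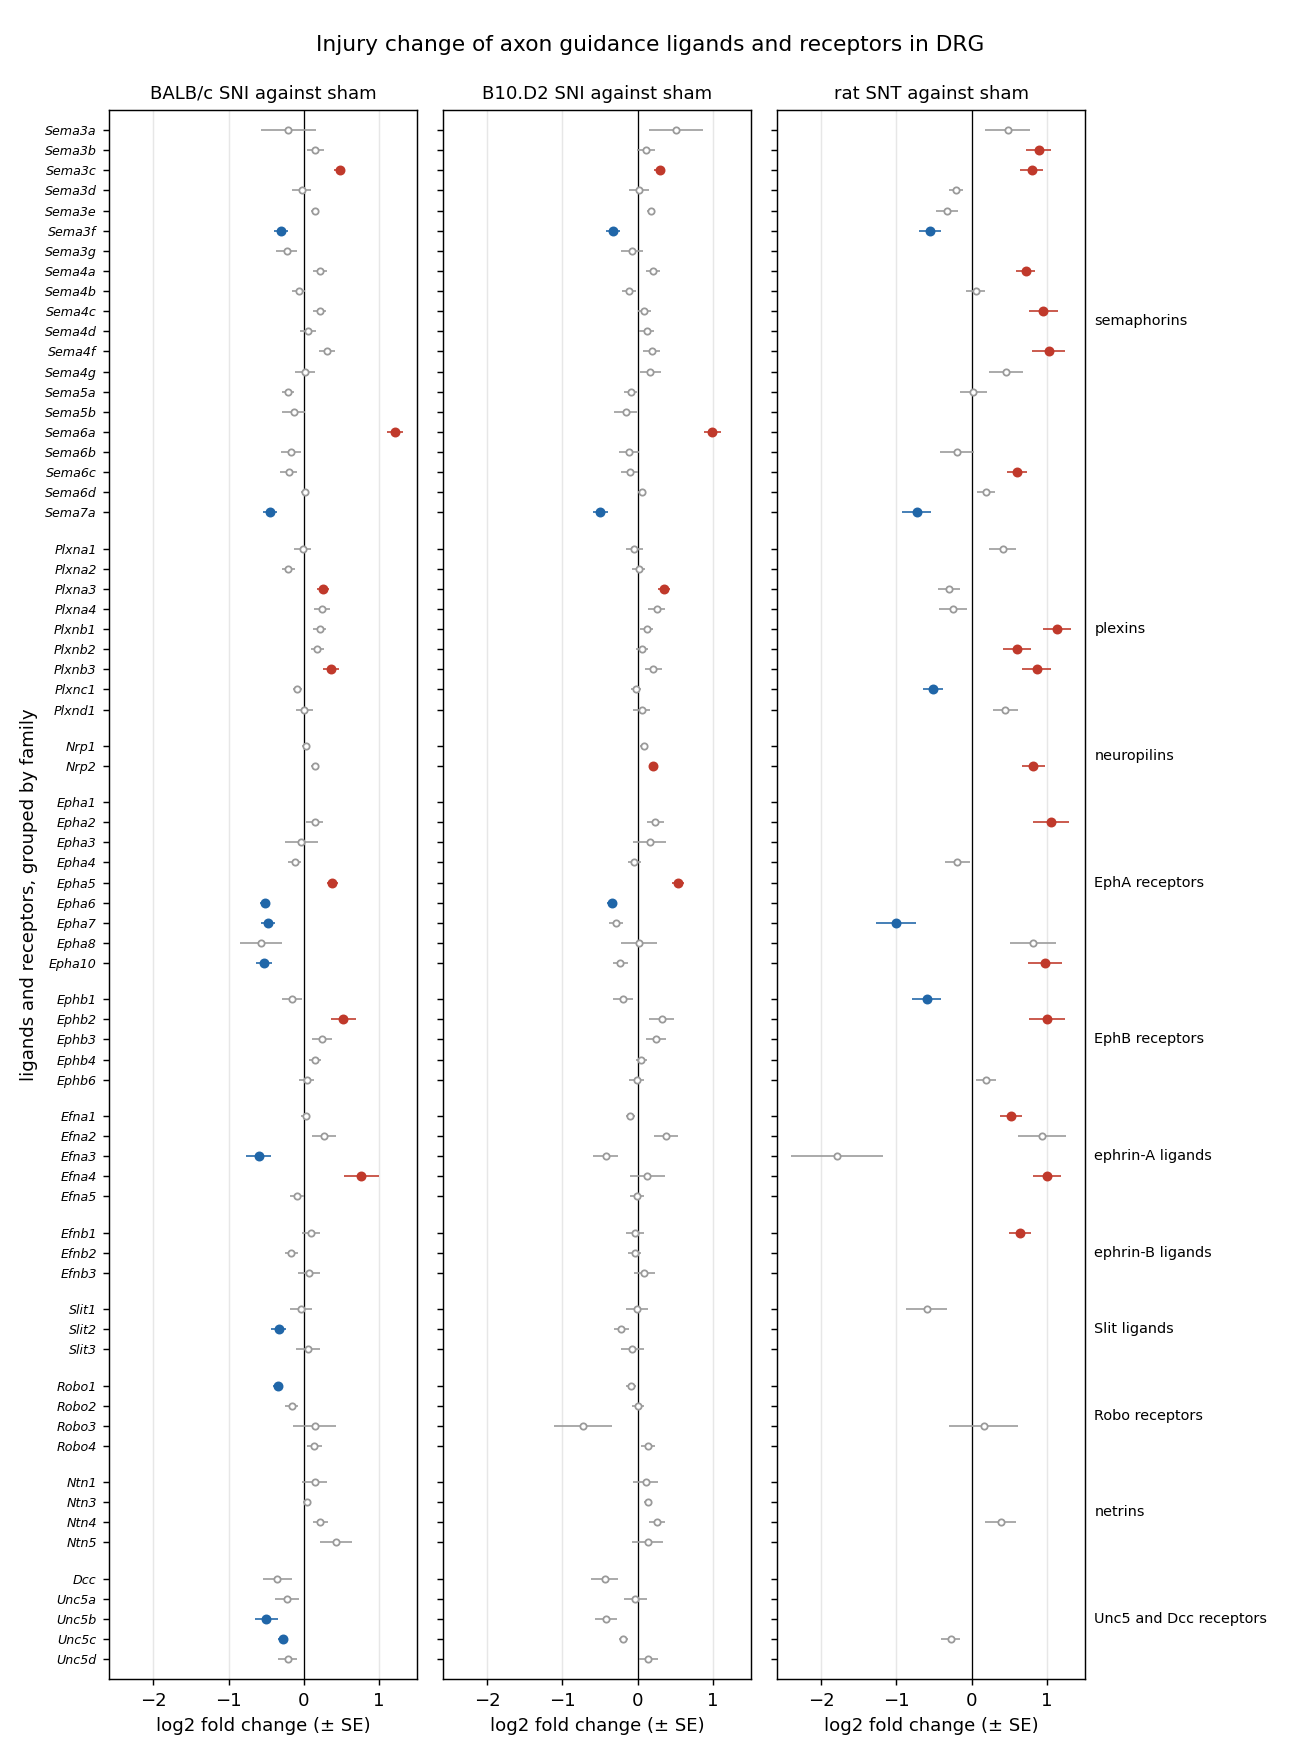
Log2 fold change of injured against sham for each tested member, by family, in BALB/c, B10.D2 and rat on 1 shared axis; bars are the SE, and filled points are called members, red higher and blue lower. Sema6a lies highest in both mouse strains, at 1.21 and 0.99.

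Beside these changes, 3 of 7 macrophage markers were called higher in BALB/c SNI and none in B10.D2 SNI, and 1 of 8 neuron markers, Snap25, was lower in both strains. Of 6 fibroblast markers 1, Lum, was higher in each strain, and of 7 endothelial markers 1, Cldn5, was higher in BALB/c. Summed fibroblast markers were 1337 to 2013 CPM in BALB/c sham and 1527 to 2650.0 CPM after SNI, and 1577 to 1613 CPM and 1425 to 2409 CPM in B10.D2. Summed macrophage markers were 49.4 to 124 CPM in BALB/c sham and 95.7 to 159 CPM after SNI, and 106 to 122 CPM and 124 to 209 CPM in B10.D2. No satellite glia marker was called in either strain. The shares called over all features were 9.69% in BALB/c SNI and 4.58% in B10.D2 SNI. Skeletal muscle markers summed to 1265 CPM in BALB/c sham 50 and 498 CPM in BALB/c SNI 49. The part of these in the member changes was not tested.

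Of the 7 members called in both strains, 5 had a promoter entry, and Sema6a and Sema3f did not. The promoters of 4 of these are shown, picked as 2 that rose and 2 that fell, without that of Plxna3, which rose. Each is the 250 bases before the RefSeq start of the gene on GRCm38.p6, 5′ to 3′ on the strand of the gene, and capitals mark the GC box (GGGCGG or its reverse complement CCGCCC) and the CCAAT box (CCAAT or ATTGG). Sema3c lies at chr5:17574566-17574815, plus strand, Epha5 at chr5:84417383-84417632, minus strand, Sema7a at chr9:57939862-57940111, plus strand and Epha6 at chr16:60605532-60605781, minus strand. The first pair rose after SNI and the second pair fell.
Sema3c: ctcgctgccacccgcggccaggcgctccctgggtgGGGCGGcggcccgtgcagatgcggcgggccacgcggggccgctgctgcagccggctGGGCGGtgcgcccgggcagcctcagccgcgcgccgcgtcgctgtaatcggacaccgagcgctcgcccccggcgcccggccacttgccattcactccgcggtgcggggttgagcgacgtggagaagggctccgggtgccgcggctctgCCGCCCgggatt
Epha5: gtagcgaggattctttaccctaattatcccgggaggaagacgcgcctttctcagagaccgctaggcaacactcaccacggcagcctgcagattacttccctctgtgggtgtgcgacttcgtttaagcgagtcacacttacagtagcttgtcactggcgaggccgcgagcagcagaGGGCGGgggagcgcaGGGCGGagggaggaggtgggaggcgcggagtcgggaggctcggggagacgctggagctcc
Sema7a: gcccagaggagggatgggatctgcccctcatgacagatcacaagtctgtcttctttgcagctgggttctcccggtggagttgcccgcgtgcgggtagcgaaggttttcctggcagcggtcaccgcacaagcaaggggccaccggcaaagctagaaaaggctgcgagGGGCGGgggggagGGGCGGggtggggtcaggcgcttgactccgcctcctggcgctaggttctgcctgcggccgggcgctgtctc
Epha6: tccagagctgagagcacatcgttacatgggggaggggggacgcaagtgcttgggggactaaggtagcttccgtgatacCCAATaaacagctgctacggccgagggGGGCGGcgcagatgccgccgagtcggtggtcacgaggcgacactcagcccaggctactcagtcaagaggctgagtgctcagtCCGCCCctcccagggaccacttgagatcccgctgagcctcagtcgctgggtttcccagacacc
Of the 69 mouse members, 59 had a promoter entry, and the same windows of 27018 promoters served as the background. A GC box, searched on both strands, was present in 43 of 59 members (72.9%) beside 32.9% of all promoters, and the median GC content was 64.8% beside 52%. A CCAAT box was present in 15 of 59 (25.4% beside 34.5%). The AP-1 site TGANTCA was in 2 of 59 members (3.39% beside 6.87%), the cAMP response element TGACGTCA in 1 (1.69% beside 1.62%), TATAAA in 2 (3.39% beside 13%) and the E-box CACGTG in 3 (5.08% beside 6.05%). The risers and fallers shown shared the GC box, and none of them held the AP-1 letters. These matches describe the letters of the window only.

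After SNT in rats, 21 of 42 tested members were called, 16 higher and 5 lower (50%, beside 27.4% of all 13690 features tested; 12.3% higher and 15.1% lower). The median log2 fold change was 0.43 over the members and 0.00 over all features. Values of SNT and sham did not overlap for 19 members, beside 26.5% of all features. Without sham 4 and SNT 1, an alternative that keeps 3 libraries a group, 29 of 42 members were called, 20 higher and 9 lower, beside 43.9% of features, and all 21 calls were kept. Slit1 (-0.87 ± 0.26, adjusted p = 0.022), Unc5c (-0.35 ± 0.12, adjusted p = 0.046), Plxna3 (-0.43 ± 0.14, adjusted p = 0.03) and Efna3 (-2.80 ± 0.57, adjusted p = 0.0036) were then called lower by edgeR. With all libraries their log2 fold changes were -0.59, -0.28, -0.30 and -1.79, not called. Plxna3 had been called higher in both mouse strains. Sham 4 and SNT 1 were left out because they lay between the groups in these same data, which widens the gap. The calls kept and added without them are therefore no independent support.

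The B-class plexins, receptors of class 4 semaphorins, were called higher, and so were 3 class 4 semaphorins. The log2 fold changes were 1.13, 0.60 and 0.86 for Plxnb1, Plxnb2 and Plxnb3, and 0.72, 0.95 and 1.02 for Sema4a, Sema4c and Sema4f. Of the rest of class 4, Sema4b and Sema4g were not called and Sema4d was listed at 0. All of these but Plxnb1 and Sema4f were named after their values were seen. The Plxnb2 call was lost in 6 of 8 fits without 1 library (adjusted p up to 0.1, edgeR). Plxnb1 was at 61, 65.9, 64.5 and 66.9 CPM in sham and 91.1, 192, 148 and 136 CPM after SNT, with no overlap and SNT 1 lowest of its group, a change of 1.13 ± 0.19, adjusted p = 0.011 by edgeR. Sema4f, a transmembrane semaphorin, was at 46.4, 79.6, 59.98 and 79.3 CPM in sham and 118, 127, 104 and 189.6 CPM after SNT (1.02 ± 0.22, adjusted p = 0.013, edgeR), again with no overlap. In all, 6 of 16 semaphorins tested were called higher and 2 lower, and 3 of 8 plexins higher and 1 lower, with medians of 0.32 and 0.43. Beside these, 12.3% of all features were called higher and 15.1% lower. Sema3b (0.89), the leading semaphorin of mouse DRG by level, and Sema3c (0.80) were among the secreted ligands called higher. Sema3c was at 219, 203, 193 and 305 CPM in sham and 376, 391, 393 and 436 CPM after SNT (0.80 ± 0.15, adjusted p = 0.011, edgeR), with sham 4 highest of the sham libraries and below all SNT libraries. Nrp2, the neuropilin that was listed with counts, was at 177, 149, 141 and 184 CPM in sham and 230.9, 360.2, 291 and 266 CPM after SNT (0.82 ± 0.15, adjusted p = 0.011, edgeR).

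The Eph receptors and ephrins also changed in rat. Epha2, a kinase receptor of ephrin-A ligands, was at 12.3, 14.5, 10.5 and 20.5 CPM in sham and 20.2, 36.4, 34.3 and 29 CPM after SNT (1.05 ± 0.24, adjusted p = 0.015, edgeR). Ephb2 was at 17.2, 17.4, 16.5 and 31.2 CPM in sham and 29.9, 50.7, 47.1 and 36.7 CPM after SNT (1.0 ± 0.24, adjusted p = 0.017, edgeR). Sham 4 stood far above the other sham libraries for Ephb2, above SNT 1 too, and the log2 fold change was 1.42 without sham 4 and SNT 1. Efna4 (1.0), Efnb1 (0.65) and Efna1 (0.52) were called higher among the ligands, and the Efna1 call was lost in 4 of 8 fits without 1 library (adjusted p up to 0.082, edgeR). Epha7 fell, at 15.4, 23.9, 22.9 and 15 CPM in sham and 12.4, 5.45, 9.23 and 11.7 CPM after SNT (-1.0 ± 0.26, adjusted p = 0.023, edgeR), and its call was lost in 3 of 8 fits without 1 library. Ephb1 was called lower (-0.60 ± 0.20, adjusted p = 0.046, edgeR) and lost in 6 of 8 such fits.

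Sema7a and its receptor Plxnc1 were both called lower in rat. Sema7a was at 109, 174, 109.6 and 93.4 CPM in sham and 69.5, 85.3, 78 and 60.4 CPM after SNT (-0.73 ± 0.19, adjusted p = 0.023, edgeR), and Plxnc1 at 41.2, 47.7, 39.9 and 49 CPM and 35.5, 28.7, 35.3 and 25.4 CPM (-0.51 ± 0.14, adjusted p = 0.023, edgeR). Sema3f fell as well, at 42.8, 59.4, 42.2 and 37.5 CPM in sham and 34, 28.3, 32.3 and 29.8 CPM after SNT (-0.55 ± 0.15, adjusted p = 0.024, edgeR). For all 3 genes every SNT library lay below every sham library. Each of these 3 calls was lost in 3 or 4 of 8 fits without 1 library, and without sham 4 and SNT 1 the log2 fold changes were -0.79, -0.51 and -0.66. The single tested Slit, Robo, netrin and Unc5 members were not called, and many others of these families were listed at 0: 2 of 3 Slits, 2 of 4 Robos, 2 of 4 netrins and 4 of 5 Unc5 and Dcc receptors.

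**Figure D4:**
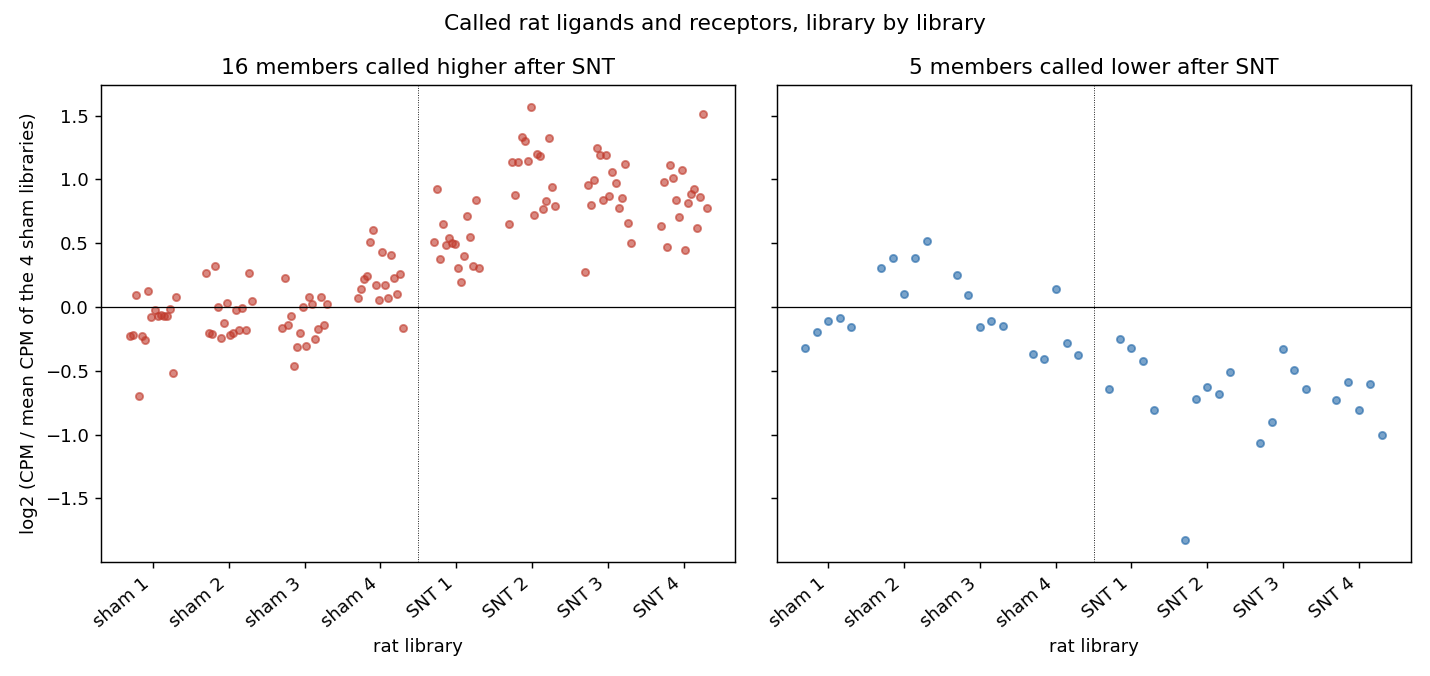
Level of the called members in each rat library, as log2 of CPM over the mean CPM of the 4 sham libraries; each point is 1 member, with the 16 called higher at the left and the 5 called lower at the right. Among the 16, most points of sham 4 lie above and most of SNT 1 below the other libraries of their group.

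Cell-type markers moved in rat too: 3 of 4 tested neuron markers were lower, 2 of 3 Schwann cell markers higher and 2 of 4 fibroblast markers higher. Beside these, 12.3% of all features were called higher and 15.1% lower. Summed fibroblast markers were 2980 to 5332 CPM in sham and 6626 to 10789 CPM after SNT, and summed macrophage markers were 97.9 to 407 CPM in sham and 338 to 478 CPM after SNT, with the top sham value in sham 4. Their part in the member changes was not tested.

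Across models, 3 members were called the same way in all 3 injury comparisons: Sema3c higher, Sema7a and Sema3f lower. Of 17 members called in BALB/c, 11 were tested in rat and 8 called there, 7 in the same direction and 1 opposite. The opposite one was Epha10, at 6.14 to 8.0 CPM (median 6.58) in BALB/c sham and 5.16, 4.66, 4.15 and 5.02 CPM after SNI, against 3.32, 6.71, 5.13 and 6.38 CPM in rat sham and 8.47, 11.8, 10.7 and 11.7 CPM after SNT (0.98 ± 0.22, adjusted p = 0.015, edgeR). Of 21 members called in rat, 19 had the same sign in BALB/c and 17 in B10.D2, beside 83.9% and 80.7% of the 2638 genes called in rat and tested in both species. Species, nerve injury, ganglion level, day and library type differed between mouse and rat, so that these cannot be told apart. Sema6a and Epha5 were listed at 0 in rat, and Epha6 was not matched by symbol there.

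No member was called different between the strains in its injury response. The strain by injury interaction called 0 of 68 members by edgeR (0.0243% of all features) and 0 by DESeq2, with 1 at an unadjusted p under 0.05 in each (4.35% of all features by edgeR). That member, Robo1, was chosen after its values were seen, and had a log2 difference of 0.26 ± 0.09. Of the 17 calls in BALB/c, 13 had the larger change in BALB/c, beside 89.5% of all 2392 features called there; being called in BALB/c favours a larger change in that strain.

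Between the strains in sham ganglia, 18 of 68 members were called, 5 higher and 13 lower in B10.D2 (26.5%, beside 21.6% of all features; 11.5% higher and 10% lower), and 7 did not overlap (13.3% of all features). The total share was close to that over all features, so the total sets nothing apart about the members. By direction, 13 of 68 lower lay above the 10% of all features, and 5 of 68 higher below the 11.5%. This tilt was not tested, and single members are described. Sema4g, a transmembrane semaphorin, was lower, at 6.41 to 10.3 CPM (median 6.91) in BALB/c sham and 5.23, 4.31, 4.94, 4.20 and 4.63 CPM in B10.D2 sham (-0.74 ± 0.13, adjusted p = 2.38e-04, edgeR). Ephb1 was lower too, at 4.30 to 6.26 CPM (median 4.87) in BALB/c sham and 3.74, 3.77, 3.04, 3.27 and 2.82 CPM in B10.D2 sham (-0.66 ± 0.12, adjusted p = 4.18e-04, edgeR). Both groups kept apart for Sema4g and Ephb1. Robo3, known from commissural neurons, was at a low level and lower in B10.D2, 0.447 ± 0.153 CPM (n = 6, SD) against 0.211 ± 0.0621 CPM (n = 5, SD) (-1.01 ± 0.31, adjusted p = 0.021, edgeR; lost without B10.D2 sham 67, adjusted p = 0.078, and without B10.D2 sham 77, 0.07). Dcc was higher, 1.36 ± 0.338 CPM (n = 6, SD) against 1.93 ± 0.345 CPM (n = 5, SD) (0.52 ± 0.17, adjusted p = 0.033, edgeR; lost in 6 of 11 fits). Sema3b was lower, 172 ± 38.1 CPM (n = 6, SD) against 127 ± 8.95 CPM (n = 5, SD) (-0.45 ± 0.11, adjusted p = 0.005, edgeR).

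**Figure D5:**
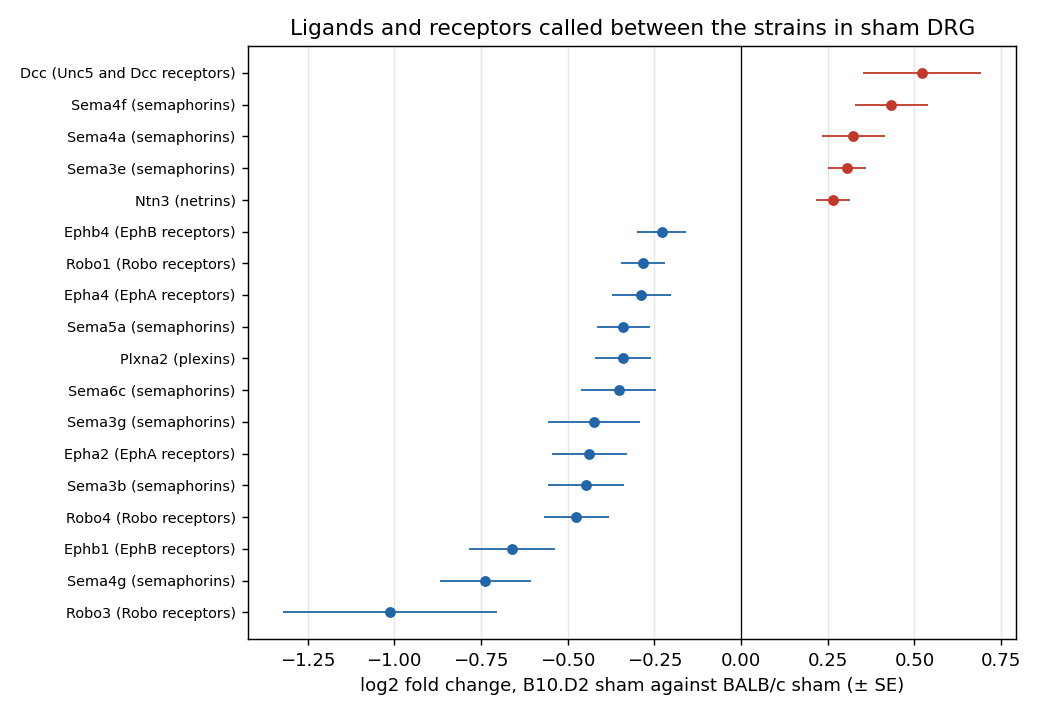
Log2 fold change of B10.D2 sham against BALB/c sham for the 18 called members, with bars of 1 SE; red points are higher and blue points lower in B10.D2. Robo3 lies lowest at -1.01 with the widest bar, and Dcc highest at 0.52.

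Marker lists differed between the sham groups as well, where 11.5% of all features were called higher and 10% lower in B10.D2. Of 7 endothelial markers, 3 were lower in B10.D2, of 7 macrophage markers 4 were higher, and of 4 T cell markers 3 were higher. Of 4 skeletal muscle markers, 3 were lower in B10.D2 (median log2 fold change -3.30), with sums of 8.27 to 1265 CPM in BALB/c sham and 7.42 to 19.7 CPM in B10.D2 sham. Of 8 neuron markers 2 were higher, of 6 fibroblast markers 2 were higher and 1 lower, and of 5 satellite glia markers 1 was lower. No Schwann cell marker was called, with sums of 1879 to 4516 CPM in BALB/c sham and 2462 to 2654 CPM in B10.D2 sham. BALB/c sham 51 and 56 had the highest of these sums, 4516 and 3461 CPM, and were also the highest libraries of Sema3b and Sema4g. The part of the marker lists in the strain differences was not tested. By sex, 0 of 68 members were called by edgeR (0.243% of all features), and 1 by DESeq2. By edgeR, 7 were at an unadjusted p under 0.05, beside 11.7% of all features, so this count sets nothing apart about the members.

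Long noncoding RNAs (LncRNAs) that the authors assembled lay at 10 member loci: 13 LncRNAs, 10 on the strand of the host gene and 3 on the other. Of 11 tested, 1 was called in each strain, LncRNA1114 in both. Beside this, 9.69% (BALB/c) and 4.58% (B10.D2) of all features were called, so a count of 1 sets nothing apart about these loci. LncRNA1114 lies within the introns of Epha5 on the same strand, at chr5:84377832-84379784 on mm10, with 2 exons. It rose from 0.270 ± 0.0907 to 0.587 ± 0.118 CPM (log2 fold change 1.12 ± 0.28, adjusted p = 0.012) by edgeR in BALB/c and from 0.250 ± 0.100 to 0.551 ± 0.102 CPM (log2 fold change 1.13 ± 0.28, adjusted p = 0.023) by edgeR in B10.D2. Its host Epha5 rose too, by 0.38 and 0.53 on the log2 scale. The level of LncRNA1114 was low beside that of Epha5, and the call was lost under several alternatives.

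Of 26 other axon guidance genes, 3 were called higher and 4 lower in BALB/c, 3 higher and 2 lower in B10.D2, and 3 higher and 7 lower of 18 tested in rat, beside 9.69%, 4.58% and 27.4% of all features. The genes named next were chosen after their values were seen. Draxin, a secreted guidance repellent and Dcc ligand, was higher in each comparison, with log2 fold changes of 1.73, 1.21 and 2.47. Chl1, a cell adhesion molecule of the L1 family that takes part in semaphorin signalling, was also higher in each (1.02, 0.66 and 1.20). Flrt3, an adhesion protein that binds Unc5 receptors and Robo1, rose in both mouse strains (1.80 and 1.23). Omg, a myelin-associated growth inhibitor, fell in both (-0.88 and -0.42). Of 40 genes that act downstream of the receptors, 7 were called higher and 3 lower in BALB/c, 2 higher and 0 lower in B10.D2, and 8 higher and 4 lower of 23 tested in rat, beside the same shares of all features; the B10.D2 count was near its background. Rnd1, a small GTPase that binds plexins, was called higher in both mouse strains, by 1.25 and 1.41 on the log2 scale, and so was Dock1, a guanine nucleotide exchange factor for Rac downstream of Dcc, by 0.29 and 0.26.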

How the data were processed

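RNA-seq of DRG covered 20 mouse and 8 rat libraries. As its methods say, the authors prepared libraries that keep strand (ribodepleted in mouse, poly-A in rat), aligned reads with STAR to mm10 and rn6, and counted read pairs per gene with HTSeq; the deposited tables hold these raw counts. Deposited tables of the authors' own DESeq2 comparisons hold fold changes and p-values, which were not used. Groups came from the labels. Counts were tested in R 4.3.3 with edgeR 4.0.16 (TMM scaling, filterByExpr, quasi-likelihood test), with sex + strain × condition in mouse and condition in rat, after tests on simulated data; alternatives used DESeq2 1.42.0, other filters and left-out libraries. TPM used GENCODE M21 exon lengths, and promoters came from RefSeq. Tables and plots used Python 3.11.15, pandas 2.3.3 and matplotlib 3.10.9. Named genes were, per injury comparison, the 5 called members that rose most and the 5 that fell most, the highest member of each family, the 4 largest strain differences in sham, any called by interaction or sex, and those called alike in all 3 injury comparisons. Members and lists were chosen with earlier results of these data known. Rat libraries are numbered in the order of the count table.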

Additional observations from a re-analysis of the deposited data

Results flagged for a closer look

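Of 170 groups of libraries tested for an outlying value, 6 were flagged, and chance flags about 1 in 20. In B10.D2 sham, Ephb6 was at 29.6 CPM in library 77 against 39.6 to 40.7 CPM in the others. In BALB/c SNI, Robo2 was at 204 CPM in library 49 against 236 to 242 CPM, and Slit1 at 197 CPM in library 70 against 151 to 157 CPM. In B10.D2 SNI, Sema6a was at 24.0 CPM in library 76 against 35.3 to 38.0 CPM. In rat, Ephb2 was at 31.2 CPM in sham 4 against 16.5 to 17.4 CPM, and Plxna3 at 69.3 CPM in SNT 3 against 85.4 to 87.0 CPM.

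Epha10 was called in opposite directions, with a log2 fold change of -0.53 in BALB/c SNI and 0.98 in rat SNT. The difference was not tested, since species, injury and library type differ between the tables.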

How the results depend on the processing

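No result reversed, and of the counts of called members all but that for sex stayed within 1.5 times the reported value under the other tool, scaling and filters. By sex, 1 member was called by DESeq2 and 1 without the filter on low counts, beside 0. LncRNA1114 was not called (0) with at least 10 counts in every library in either strain, nor (0) in B10.D2 by DESeq2 or with the strain fitted alone. Signalling genes called in B10.D2 numbered 4 by DESeq2 and 1 with the strain fitted alone, beside 2. Leaving out 1 library at a time gave 9 to 15 members in BALB/c (9 without SNI 64, 10 without sham 56 or SNI 65), 5 to 8 in B10.D2 (5 without SNI 69 or SNI 90), 13 to 21 between strains in sham, 14 to 26 in rat, 0 for the interaction and 0 for sex. The same gave 0 to 1 LncRNAs in each strain, 6 to 8, 4 to 6 and 7 to 12 other guidance genes, and 6 to 10, 1 to 4 and 5 to 15 signalling genes in BALB/c, B10.D2 and rat. Calls kept in every alternative numbered 9 of 17, 5 of 8, 12 of 18 and 13 of 21 in BALB/c, B10.D2, strain in sham and rat. With the number that sham and SNT libraries share in their names as replicate block, 16 rat members were called, beside 21; deviations of same-numbered rat libraries correlated at -0.24 to 0.05, so the number was not taken as a pairing. Depth limits the low members and LncRNA1114.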

Other observations

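By sex, Sema3d, a class 3 semaphorin named after its values were seen, had the smallest p of the members in both tools. Its log2 fold change of female against male was 0.34 ± 0.09. It was not called by edgeR (adjusted p = 0.14) and was called by DESeq2 (adjusted p = 0.031). The antisense RNA Plxna4os1, set aside from the members, was not called after SNI: the log2 fold change was 1.19 ± 0.43 (adjusted p = 0.089, edgeR) in BALB/c and 0.93 ± 0.38 (adjusted p = 0.19, edgeR) in B10.D2.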
